A study of Drosophila melanogaster with 2 samples.

Results

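The 7 genes described here, kirre, rst, sns, hbs, rols, mbc and blow, take part in the fusion of myoblasts, and they are 7 of 13968 protein-coding genes of the annotation. They were examined in a map of genomic regions recovered with btn-eGFP from whole Drosophila melanogaster embryos. The genes were chosen by their role and by a measured value, since kirre holds more optimal peaks than any other protein-coding gene, so the peak counts given here are descriptions and carry no test. A peak was assigned to a gene when its summit was inside the annotated gene or no more than 2 kb outside it. Together the 7 genes had 19 of the 2153 peaks that the authors kept as reproducible, termed optimal peaks, and 138 of the 30000 candidate regions from which those peaks were taken.

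The study used chromatin immunoprecipitation with an antibody against GFP, followed by sequencing. The embryos were of mixed sex, aged 0 to 14 h, and came from a transgenic line that carries Buttonless (btn, a homeodomain protein) with a GFP tag at its C-terminus. There was 1 group of 2 biological replicates, which the labels number 2 and 3, and chromatin was sonicated to 200 to 800 bp. No untagged line, other stage or other genotype was analysed here, so no comparison between conditions exists, and whether the tagged protein itself was bound at a peak was not tested. Every cell type of the embryo contributed to the chromatin, and the muscle lineage cannot be told apart from the rest. Read depth is unknown. The signal of a region is a value the authors deposited, and it serves here to rank regions inside 1 list.

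Body wall muscles of the fly embryo form when founder cells, which carry the identity of a muscle, fuse with fusion-competent myoblasts. The cells recognise each other through immunoglobulin-domain proteins: kirre (also called dumbfounded) and rst (roughest) on the founder side, and sns (sticks and stones) and hbs (hibris) on the fusion-competent side. Inside the founder cell the adaptor rols (rolling pebbles) links the receptor to mbc (myoblast city), an activator of the GTPase Rac. In the fusion-competent cell blow (blown fuse) acts on the actin focus that pushes the membranes together.

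Of the 7 genes 3 (42.9%) had an optimal peak: kirre with 12, mbc with 4 and rols with 3. The receptors rst, sns and hbs and the cytoplasmic protein gene blow had 0. Of all 13968 protein-coding genes, 18.7% had an optimal summit by the same rule, and the median gene had 0. Long genes have one more often: among the 1985 protein-coding genes of 10 kb or more the share was 38.1%, and every gene of the 7 except blow exceeds that length. Counted once each, 19 of the 138 pooled candidates at the 7 genes were optimal peaks, which is 13.8%, and 7.18% of all pooled candidates were. Since kirre was chosen for its optimal peaks, nothing is read from that difference. Candidates themselves had a density of 0.234 per kb over the 590 kb covered by the 7 genes and 0.218 per kb over the main chromosome arms. The arms are taken whole and include Y. Parts of them hold almost no candidates, which lowers the arm means of both candidates and optimal peaks. Of the 19 optimal summits, 17 lay in an intron and 2 in a 5′ UTR, and 0 lay in a coding exon. The shares of these classes over all optimal peaks are not given, so no trait of the 7 genes is read from this.

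**Figure D1:**
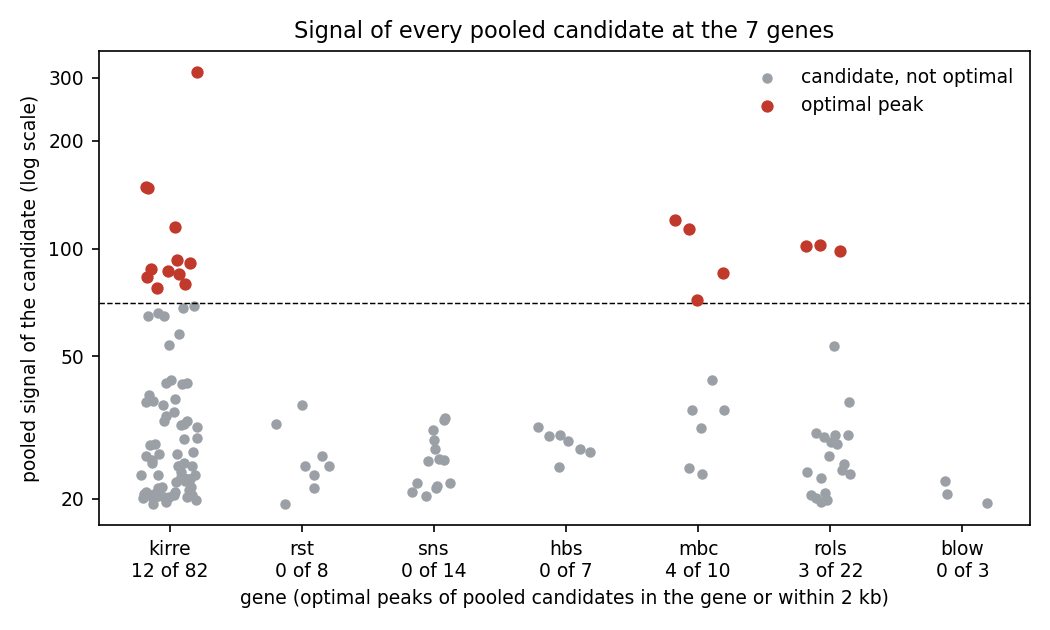
Pooled signal (log scale) of every candidate region at each of the 7 genes; each point is 1 candidate, red points are optimal peaks, the dashed line is the weakest optimal signal of 70.5, and points are spread sideways only for legibility. Optimal peaks are seen at kirre, mbc and rols, while all candidates of rst, sns, hbs and blow lie at or below 36.6.

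kirre (FBgn0028369) spans 394149 bp on the X chromosome, chrX:2740384-3134532 on the plus strand, and has 6 annotated transcription start sites (TSSs). Its 12 optimal summits gave 0.0301 per kb of the gene with its flanks, against 0.0157 per kb over the main arms and 0.0168 per kb over X. The density of pooled candidates was 0.206 per kb, close to the 0.202 per kb of X, and 12 of the 82 candidates (14.6%) were optimal, the value for which kirre was chosen. When any overlap of 1 bp or more with an optimal peak was accepted, the share was 17.1%, and that of all pooled candidates 8.69%. In the candidate lists of single replicates kirre had 84 summits in replicate 2 and 84 in replicate 3.

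The peaks of kirre were spread unevenly along its body. From the first TSS to the third lie 249 kb, and this stretch held 5 optimal summits among 40 candidates, or 0.0201 optimal summits per kb. The next 110 kb, up to the fourth TSS, held 7 optimal summits among 30 candidates, or 0.0633 per kb. The last 29.1 kb before the final TSS held 0 among 6 candidates, and the 5.89 kb from there to the gene end, held 0 and 1 candidate. Within the second of these stretches, 5 summits lay within 38.2 kb, from X 3007952 to X 3046201. Gaps between neighbouring summits ranged from 956 bp to 88.0 kb, with a median of 17.3 kb. All 12 optimal summits were intronic, and of the 82 candidates 71 were. The 5 candidates in coding exons had signals of at most 38.0.

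**Figure D2:**
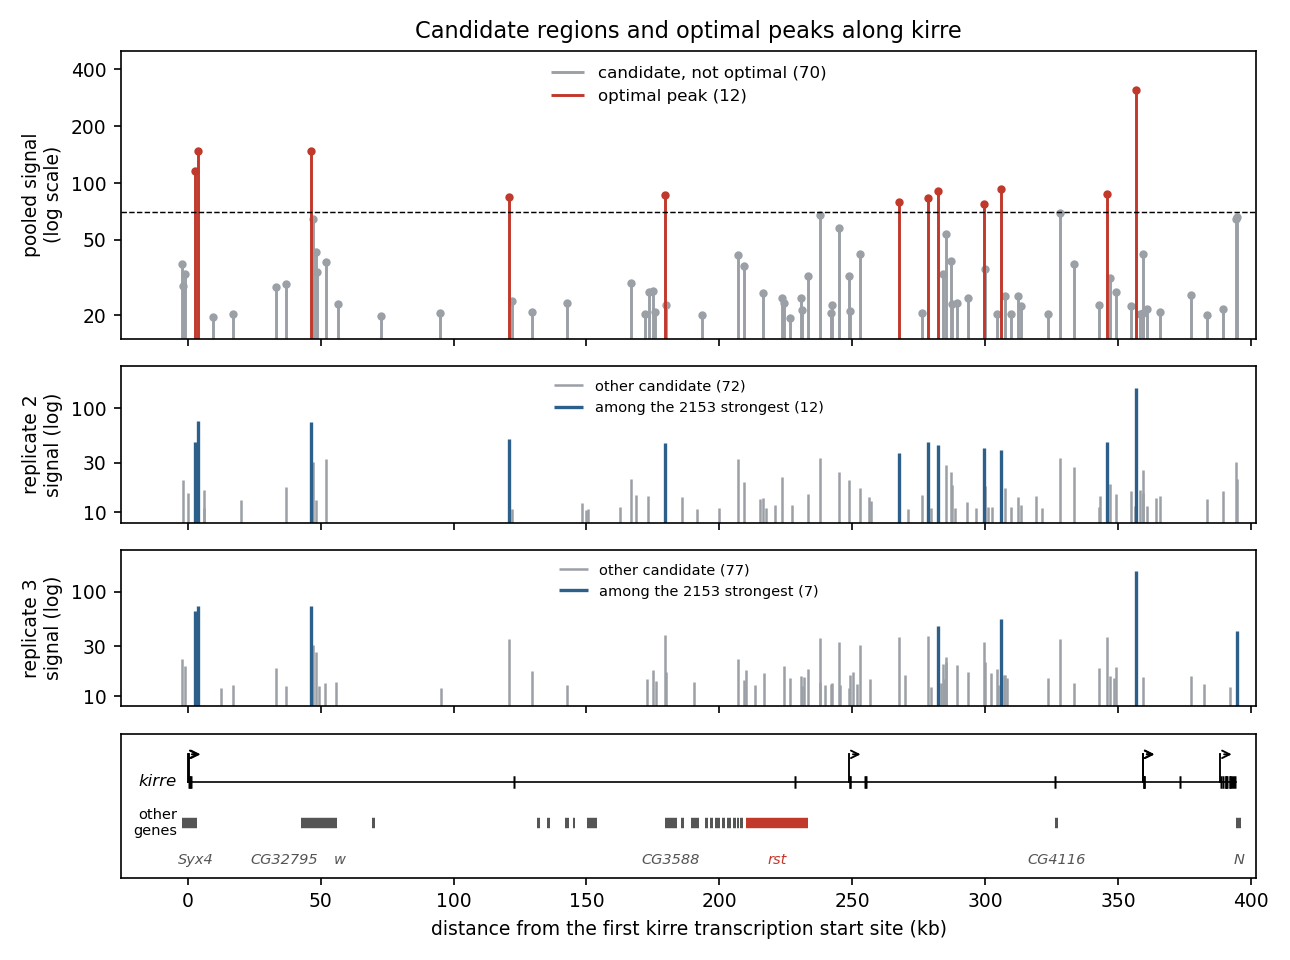
Signal (log scale) of candidate regions along kirre against distance from its first TSS in kb, for the pooled list (red, optimal peaks; dashed line, the weakest optimal signal of 70.5) and for each replicate (blue, among that replicate's 2153 strongest); the lowest panel shows exons and TSSs (arrows) of kirre and the bodies of overlapping genes. The strongest peak, at 311, stands 357 kb from the first TSS, 7 optimal peaks lie between the third TSS and the fourth, and rst holds none.

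The strongest peak of kirre had its summit at X 3097237, in an intron and 2313 bp upstream of the fourth TSS. Its signal was 311 in the optimal list, where it ranked 98 of 2153. In replicate 2 it had a signal of 155 and rank 107, and in replicate 3 a signal of 157 and rank 97, so both libraries placed it alike. The region was 228 bp wide, narrower than the usual 410 bp. The next peaks in order of signal lay at the other end of the gene. The summit at X 2744212 (signal 148, rank 535) ranked 536 in replicate 2 and 602 in replicate 3. It is 136 bp upstream of the TSS of Syx4, a syntaxin gene of membrane fusion that is transcribed away from it on the other strand. A neighbour 956 bp away, at X 2743256 (signal 115, rank 873), lies in introns of both kirre and Syx4, 298 bp upstream of an inner Syx4 TSS. The summit at X 2786770 (signal 148, rank 539) lies in introns of both kirre and the nested gene CG32795. Its region of 112 bp was the narrowest of the 12, and it ranked 554 in replicate 2 and 582 in replicate 3.

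The sequences of 3 of these peaks, each 100 bp to either side of the summit, are shown because they are the strongest of kirre. They were read on the plus strand of the dm6 assembly (RefSeq Release 6), and capitals mark matches to CANNTG, the E-box word of basic helix-loop-helix factors, or to TAATTA, a homeodomain core word. The first and the second hold neither word.
kirre, signal 311, at chrX:3097137-3097337: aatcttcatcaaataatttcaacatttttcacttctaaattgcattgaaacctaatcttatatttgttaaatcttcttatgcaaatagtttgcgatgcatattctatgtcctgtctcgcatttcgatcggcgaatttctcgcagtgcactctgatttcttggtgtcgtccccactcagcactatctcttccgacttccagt
kirre, signal 148, beside Syx4, at chrX:2744112-2744312: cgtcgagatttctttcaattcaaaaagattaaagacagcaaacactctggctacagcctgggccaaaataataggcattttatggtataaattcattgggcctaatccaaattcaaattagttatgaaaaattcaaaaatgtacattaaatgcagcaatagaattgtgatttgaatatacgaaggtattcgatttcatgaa
kirre, signal 148, within CG32795, at chrX:2786670-2786870: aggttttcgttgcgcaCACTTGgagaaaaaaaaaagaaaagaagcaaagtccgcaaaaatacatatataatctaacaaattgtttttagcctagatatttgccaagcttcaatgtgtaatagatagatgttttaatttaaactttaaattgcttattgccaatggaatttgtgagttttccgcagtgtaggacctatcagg
Their GC contents were 37.3%, 31.3% and 32.3%, and the third carries a run of 10 identical bases.

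The other 8 optimal peaks of kirre were weaker, with signals from 77.5 to 92.7 and ranks from 1332 to 1824. The summit at X 2919943 (signal 86.7) was 173 bp downstream of the TSS of the nested gene CG3588. The summit at X 2861177 (signal 84.7) was far from any start, 11676 bp from that of CG14416 and 120372 bp from a TSS of kirre. In the 38.2 kb stretch, the summits at X 3007952, X 3018886, X 3022594, X 3039937 and X 3046201 had signals of 79.8, 83.5, 91.0, 77.5 and 92.7. The first 3 of these were 18901 to 33543 bp downstream of the third TSS of kirre, with no nearer start of another protein-coding gene. For the last 2 the nearest start was that of CG4116, 27545 and 21281 bp away. The summit at X 3086065 (signal 87.9) was 13485 bp upstream of the fourth TSS. These 8 signals lie close to one another and near the weakest optimal signal of 70.5, and no large step separates them.

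For 5 of the 12 peaks the nearest TSS was one of kirre, and for 7 it was that of Syx4, CG32795, CG14416, CG3588 or CG4116. None of the 12 was within 1 kb of a TSS of kirre, and the distances ranged from 2313 to 120372 bp. Of the 21 protein-coding genes nested within kirre, 2 held an optimal summit in their body (CG32795 and CG3588) and 6 held any pooled candidate. The eye pigment transporter gene w, also nested, had 1 candidate with a signal of 38.0. Without the 3 summits that lie within 1 kb of the TSS of another gene, an alternative chosen after seeing the data, kirre had 9.

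Several candidates of kirre fell just short of the threshold. The strongest of them, at X 3068472, had a signal of 69.2 and was 910 bp upstream of CG4116, and the next, at X 2978286, had 68.1 and was 4452 bp upstream of rst. The weakest optimal peak in the whole list had 70.5 and the weakest at kirre 77.5. A candidate with a signal of 66.0 at X 3135024, in the 5′ UTR of the adjoining gene N (Notch), counts for kirre only through the 2 kb flank. It ranked 2834 in replicate 2 and 1857 in replicate 3. N itself had 2 optimal summits in its body, both beyond the interval of kirre.

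Both replicates held a candidate at each of the 12 optimal peaks, with a median distance between summits of 7.00 bp for replicate 2 and 19.0 bp for replicate 3. They differed in where those candidates ranked. All 12 were among the 2153 strongest of replicate 2, but only 6 were among the 2153 strongest of replicate 3, so 6 of 12 were there in both, against 70.3% of all optimal peaks. For all optimal peaks the replicates were even, with 84.8% among the strongest of replicate 2 and 83.9% among those of replicate 3. The 6 peaks outside the strongest of replicate 3 had signals from 32.9 to 38.5 there, just under the lowest signal of 39.0 among its 2153 strongest, and ranks from 2214 to 3044. The median rank of the 12 was 1307 in replicate 2, 1834 in replicate 3 and 1415 of 2153 in the optimal list. Ranked by replicate 2 alone, kirre had 12 summits among the strongest 2153, and by replicate 3 alone it had 7, of which 1 is the candidate at N. The count of kirre therefore moved by over 1.5 times without replicate 2, to 0.0176 per kb. The 4 peaks of highest pooled signal were among the strongest in both replicates. Spearman's rho of the replicate signals was 0.483 over these 12 peaks and 0.653 over all optimal peaks with a candidate in both. This is a description, since the peaks come from the same libraries and were selected by both.

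**Figure D3:**
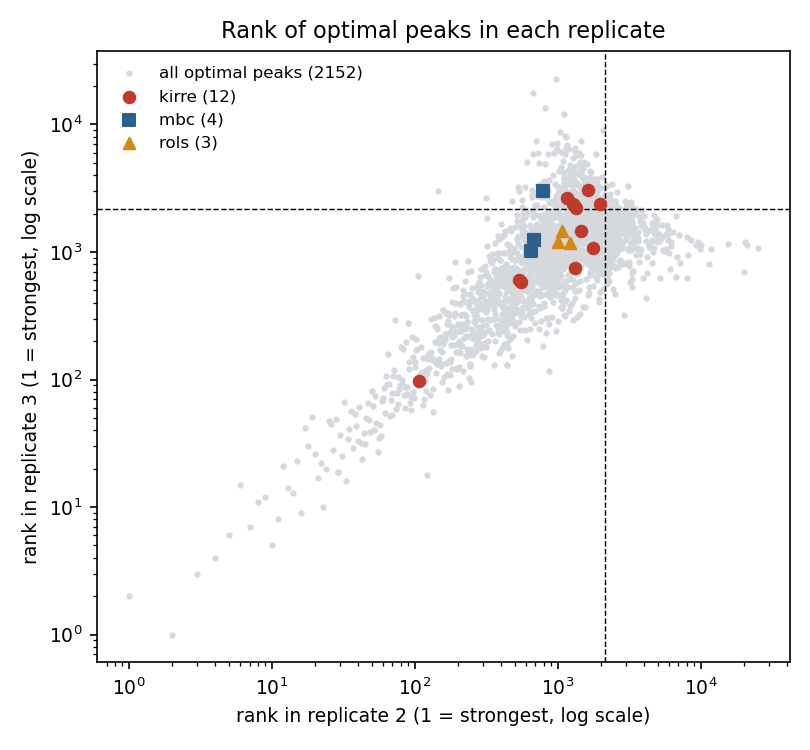
Rank of each optimal peak in replicate 2 against its rank in replicate 3 (log scales, 1 is the strongest); grey points are all 2152 optimal peaks with a candidate in both, coloured points are those of kirre, mbc and rols, and dashed lines mark rank 2153. All 19 coloured points lie left of the line for replicate 2 and 12 lie below the line for replicate 3; 2 points of mbc coincide because 2 overlapping peaks share their replicate candidates.

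Among the 87 protein-coding genes of 100 kb or more, kirre had the most optimal summits but not the highest density. The genes next in number were Eip75B and CG1677 with 8 each, pyd (polychaetoid, a junction protein) with 6, and Svil and dnc (dunce, a phosphodiesterase) with 5 each. Eip75B, a nuclear receptor gene of the ecdysone response, had 0.0679 optimal summits per kb, CG1677 had 0.0622, pyd 0.0551 and Svil 0.0398, all above the 0.0301 of kirre, whereas dnc had 0.0292. By density kirre was number 7 of the 87. Of these genes 41 had any optimal summit, and the median was 0. The 87 include 4 genes on Y and 9, partly the same, without any pooled candidate. Without the 4 on Y the median density was still 0. The strongest candidates of single replicates gave 7 and 8 summits for Eip75B and 9 and 10 for CG1677, in replicates 2 and 3, against the 12 and 7 of kirre.

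**Figure D4:**
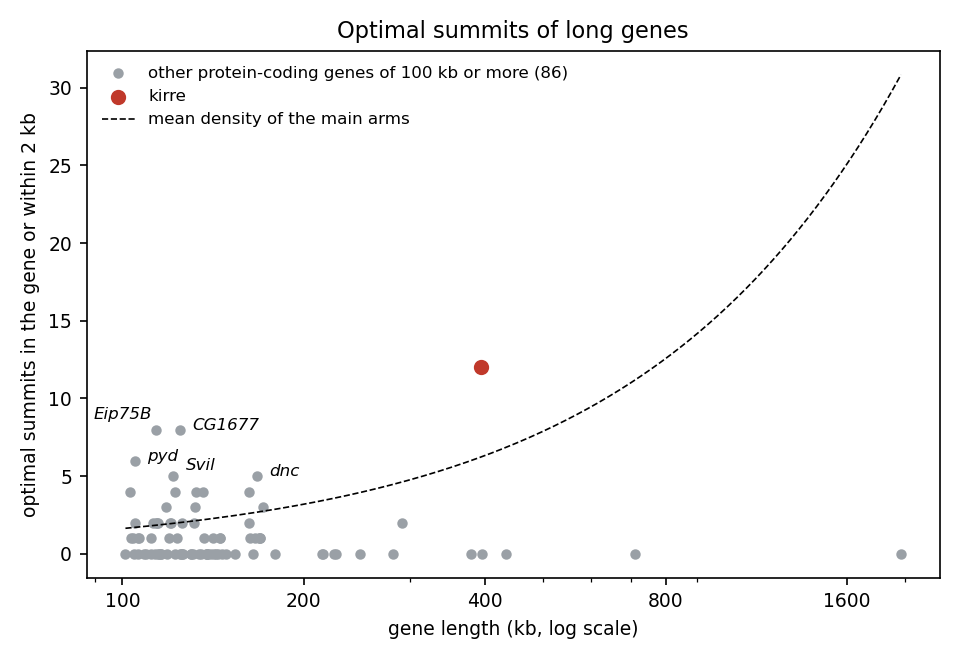
Number of optimal summits in the gene or within 2 kb against gene length in kb (log scale) for the 87 protein-coding genes of 100 kb or more; the dashed curve is the mean density of the main arms, 0.0157 per kb. kirre, in red, has 12 and lies above the curve, as do the 5 labelled genes with the next highest counts, which have 5 to 8.

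rst (FBgn0003285), the second receptor of founder cells, lies wholly inside kirre on the other strand, at chrX:2950399-2973834, and its peaks are therefore counted for kirre too. It had 0 optimal peaks among 8 pooled candidates. The exact 95% interval of this share reaches 36.9%, which treats candidates as independent and holds counting error only, no spread between replicates. The strongest candidate within 2 kb of rst had a signal of 36.6, rank 7833 of 30000, and lay 1428 bp downstream of the start of CG3603. At the TSS of rst itself, 19 bp upstream, a candidate had a signal of 32.2, with ranks of 14238 in replicate 2 and 12746 in replicate 3. The candidate of 68.1 named above, 4452 bp upstream of rst, is outside its 2 kb flank. The receptor pair of founder cells, neighbours on the chromosome, had 12 and 0 optimal peaks, with rst nested in a stretch of 88.0 kb of kirre that held none.

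The receptor genes of fusion-competent myoblasts had only weak candidates in the pooled list. sns (FBgn0024189; 2R 8798489 to 8856091) had 14 pooled candidates and 0 optimal peaks. The strongest was in its 5′ UTR, 5 bp downstream of the TSS, with a signal of 33.5 (rank 9563), and it ranked 25228 in replicate 2 and 8941 in replicate 3. An intronic candidate at 2R 8808604 had a signal of 33.2 and ranked 4903 in replicate 2, and no candidate of replicate 3 overlapped it. hbs (FBgn0287864; 2R 15011396 to 15042134) had 7 candidates and 0 optimal peaks, with a highest signal of 31.7 (rank 10829) in an intron, 889 bp from the start of the odorant-binding protein gene Obp51a. That candidate had rank 5670 in replicate 3 and none in replicate 2. Elsewhere at hbs, the strongest candidate of replicate 2 had a signal of 30.7 and rank 2829. The strongest of replicate 3 had a signal of 27.2 and rank 4696. The exact 95% intervals of these shares of 0 reach 23.2% for sns and 41.0% for hbs, again with counting error only. blow (FBgn0004133; 2R 7580488 to 7587079) had 3 candidates, with signals from 19.4 to 22.4, which is near the lowest signal of 19.2 in the pooled list. Its strongest lay in a coding exon and ranked 22727.

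At these genes most pooled candidates were found in 1 replicate or in none. Of the pooled candidates, 3 of 14 at sns, 2 of 7 at hbs, 3 of 8 at rst and 1 of 3 at blow overlapped a candidate in both replicates. Of the genes with optimal peaks, rols had 7 of 22 (31.8%), kirre 40 of 82 (48.8%) and mbc 7 of 10 (70.0%). The share was 50.7% over all pooled candidates. None of rst, sns, hbs and blow had a summit among the 2153 strongest of either replicate.

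mbc (FBgn0015513), the gene of the Rac activator, had 4 optimal peaks in 19870 bp at chr3R:23781765-23801634, a density of 0.168 per kb with its flanks. Of the 13968 protein-coding genes, 57 (0.408%) had 4 or more and 154 (1.10%) had 3 or more. Of the 1985 genes of 10 kb or more, 16 had at least the density of mbc. The count of 4 includes 2 overlapping peaks at the start of mbc, described below. The strongest candidates of single replicates gave 3 summits for mbc in replicate 2 and 2 in replicate 3. Of the 10 candidates of mbc 4 were optimal, and all 4 lay within 2.44 kb of its TSS. The strongest summit, at 3R 23782994 in an intron and 1229 bp downstream of the TSS, had a signal of 121 and rank 800. It ranked 654 in replicate 2 (signal 67.9) and 1014 in replicate 3 (signal 56.0). A second intronic summit 2436 bp downstream of the TSS, at 3R 23784201, had a signal of 85.7 and rank 1521. For this one the libraries were apart, with rank 789 in replicate 2 (signal 61.6) and rank 2993 in replicate 3 (signal 33.2).

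The other 2 peaks of mbc overlap each other at the start of mbc, where a nucleoporin gene begins on the other strand. One summit, at 3R 23781564, was in the 5′ UTR of the nucleoporin gene, 57 bp from its TSS and 201 bp upstream of mbc, with a signal of 113 (rank 911). The other, at 3R 23781795, was in the 5′ UTR of mbc, 30 bp from its TSS, with a signal of 71.9 (rank 2079). That second value is just inside the threshold of 70.5. Both overlap the same strongest candidates, at rank 683 in replicate 2 and rank 1236 in replicate 3, so the replicate values of the pair are not separate measurements. With summits less than 1 kb apart counted once, the 19 peaks of the 7 genes became 17.

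The intronic peaks of mbc are shown as the strongest of the gene and as the only intronic peak of the 7 genes that holds TAATTA, at 100 bp to either side of the summit, on the plus strand of dm6, with capitals as above.
mbc, signal 121, at chr3R:23782894-23783094: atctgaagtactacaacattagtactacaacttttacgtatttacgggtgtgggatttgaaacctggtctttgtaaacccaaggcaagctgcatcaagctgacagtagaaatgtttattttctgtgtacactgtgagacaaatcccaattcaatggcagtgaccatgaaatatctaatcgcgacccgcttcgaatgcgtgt
mbc, signal 85.7, at chr3R:23784101-23784301: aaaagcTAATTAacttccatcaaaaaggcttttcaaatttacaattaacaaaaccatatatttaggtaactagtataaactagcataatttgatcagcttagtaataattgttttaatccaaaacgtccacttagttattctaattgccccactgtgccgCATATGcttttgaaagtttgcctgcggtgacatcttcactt
The first had a GC content of 40.8% and neither word, and the second 31.8% with 1 match to each.

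rols (FBgn0041096), the adaptor between the founder receptor and mbc, had 3 optimal peaks in 56635 bp at chr3L:12008225-12064859 on the minus strand, or 0.0495 per kb. They had nearly equal signals of 103, 102 and 98.4 and ranks of 1118, 1134 and 1207. The strongest summit, at 3L 12037992, was in an intron and 18482 bp downstream of a TSS of rols. The next, at 3L 12056917, was 443 bp upstream of the inner TSS, and that at 3L 12063004 was 1855 bp downstream of the outer one. In the order of those 3 signals, replicate 2 gave 52.2, 48.7 and 54.1, and replicate 3 gave 46.8, 52.5 and 52.1. All 3 were among the 2153 strongest of both replicates, the only gene of the 3 with peaks for which this held. Of 22 candidates 13.6% were optimal. The strongest candidate below the threshold, at 3L 12030733 with a signal of 53.4, ranked 2124 in replicate 2 and 14608 in replicate 3.

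The strongest peak of rols is shown as the deepest of its 3 in the gene. It holds neither word.
rols, signal 103, at chr3L:12037892-12038092: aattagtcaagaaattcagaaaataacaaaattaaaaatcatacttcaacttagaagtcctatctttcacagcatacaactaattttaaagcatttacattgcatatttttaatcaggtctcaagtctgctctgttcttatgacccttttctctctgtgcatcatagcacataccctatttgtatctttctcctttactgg
Its GC content was 31.3%.

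The 19 peaks had a lower median GC content than all optimal peaks, and their ranges overlapped. The searched words gave counts near their shares over all optimal peaks or too small to compare. The median GC within 100 bp of the summit was 34.3% (range 30.3 to 46.8%), against 37.8% for all optimal peaks and 46.3% for all pooled candidates. For the 12 peaks of kirre the median was 34.1%. CANNTG was in 11 of the 19 windows and in 6 of the 12 of kirre, against 63.7% of all optimal peaks and 66.9% of pooled candidates. TAATTA was in 2 of 19, both at mbc, and in 0 of 12 at kirre, against 12.9% of optimal peaks and 9.17% of pooled candidates. ACACACAC was in 1 of 19, at mbc, against 4.41% and 4.19%. The 4 remaining words were in 0 of 19: GAGAGAG, the word of GAGA factor, is in 5.57% of optimal peaks, TATCGATA, the word of DREF, in 2.83%, CACTTGA, a Tinman word, in 3.53%, and CAGGTAG, the Zelda word, in 1.11%. In pooled candidates these 4 are in 3.97%, 1.22%, 3.74% and 1.51%. All words were searched on both strands. A missing word says only that these letters are not in the window.

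Of 26 other genes of the fusion machinery, 10 had an optimal summit by the same rule (38.5%), against 18.7% of all protein-coding genes. The count depends on the flank, since 6 had one in the gene body alone. The 18.7% includes the flank, so it is no measure for that lower count. The list holds genes of very different length and was not tested.

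The groups by role hold 2 to 6 genes each, too few to compare with one another or with the 18.7% of all protein-coding genes. Their counts are therefore only listed, here and below. None of the 4 genes listed with Rac (Ced-12, Rac1, Rac2 and Crk) had one, with highest pooled signals from 28.8 at Crk to 51.1 at Rac2. Neither adhesion or membrane gene, sing (singles bar) or CadN, had one. Of 6 actin nucleation genes 3 did: WASp (signal 91.6, 95 bp upstream of its TSS), Hem (a subunit of the SCAR complex, 87.5) and dia (diaphanous, a formin, 70.8). The peak of dia is near the weakest optimal signal of 70.5, at rank 2138, and ranked 2076 in replicate 2 and 9036 in replicate 3. The peak counted for Hem lies 143 bp from the start of its neighbour IleRS. SCAR, Abi and Vrp1 had 0.

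Of 6 genes for small GTPases, their regulators and kinases 4 had a peak. Pak3, a kinase gene, had 2, the stronger in its intron with a signal of 269 and rank 143, and ranks of 129 and 150 in replicates 2 and 3. The other, with a signal of 98.0, is at the start of CG14882. Rho1 had 1 with a signal of 134, 5 bp upstream of its TSS, Pak had 2 (111 and 73.6), and siz (schizo, an exchange factor for Arf GTPases) had 2 (87.3 and 78.4). Arf6 and Graf had 0.

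Of the 3 spectrin and titin genes, sls (sallimus, the fly titin) had 1 with a signal of 143, 288 bp upstream of a TSS, and kst and alpha-Spec had 0. Among 5 genes of founder and fusion-competent fate, Mef2, the myogenic transcription factor gene, had 4, and jeb (jelly belly, the ligand of the receptor Alk) had 1 with a signal of 77.5. The strongest peak counted for Mef2 had a signal of 438 and rank 49, with ranks of 32 and 67 in replicates 2 and 3. It lies in an intron of the neighbouring gene Pal1, 162 bp from that gene's TSS. The next, in a 5′ UTR of Mef2, had 176 and rank 367. lmd (lame duck), Alk and twi (twist) had 0.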

How the data were processed

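The analysis used 4 deposited peak lists in dm6 coordinates: the candidates from each replicate and from the 2 replicates pooled, with 30000 regions each, and the authors' optimal list of 2153. Per the deposited README files, alignments and a control experiment went into the candidates, and the candidates into the optimal list. No source used here names the aligner, the peak caller or the reproducibility threshold. Peak signal is the authors' deposited value per region and was compared within a list only. The optimal peaks are the strongest pooled candidates by signal. Lists in dm3 were not used.

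A summit is region start plus deposited offset, counted from 1. Genes came from Ensembl release 115 (BDGP 6.54), intervals were extended by 2 kb, and regions were matched by an overlap of at least 1 bp; of several matches the strongest was kept. Sequence came from RefSeq Release 6. Words were searched within 100 bp of a summit. Genes named are the 7, the fusion list, the nearest or overlapping genes of their peaks and the 5 long genes with most peaks; others were named after their values were seen. The genes, lists and words were chosen with earlier results of these data known, so no test was run; the counting was checked on simulated data. Exact intervals are Clopper-Pearson at 95%. Python 3.11.15, pandas 2.3.3, numpy 2.4.6 and scipy 1.17.1 were used.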

Additional observations from a re-analysis of the deposited data

How the results depend on the processing

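Of 45 alternative values computed, 31 stayed near the main value and 14 moved. Counts were held to 1.5 times the main value, the share of candidates to its exact interval, and the density and the median rank to 1 SD between the replicates. That SD comes from the 2 single-replicate values, which are themselves among the alternatives, so the limit widens where they disagree. The 31 also include words that were in 0 windows at both widths. With only the optimal peaks at or above the median signal of the 2153, kirre had 4 summits (0.0100 per kb), the 7 genes together 6, and 5 of the 26 other fusion genes had one. Leaving out a replicate and taking as many of the strongest candidates of the other gave 7 to 12 summits for kirre (0.0176 to 0.0301 per kb) and 12 to 19 for the 7 genes; the lower values are those without replicate 2. In the gene body alone, 6 of the other fusion genes had a summit. No share of all protein-coding genes by these altered rules is given, so the counts of other fusion genes are only listed. With the top 1000 or 5000 candidates of each replicate in place of 2153, 3 or 19 of the 19 peaks were in both. The median rank of the kirre peaks was 1834 in the replicate 3 list. Within 50 bp of the summit, TAATTA was in 0, ACACACAC in 0 and CANNTG in 5 of the 19 windows. The cause of these moves was not tested beyond what each setting leaves out. The number of genes with an optimal peak was 3 under every alternative except the peaks at or above the median signal, where it was 2. The comparison in dm3 was not run, because nothing was converted between builds. No paired analysis was possible because there is 1 group and no test between groups. Depth is unknown, so no limit per region can be given.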

Other observations

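Of the protein-coding genes of over 300 kb, a group chosen after its values were seen, kirre had 12 optimal peaks and 82 pooled candidates. The other 5 were Pzl (709 kb), Myo81F (1966 kb), lovit (434 kb), CG17684 (396 kb) and DIP-lambda (379 kb). They had 0 optimal peaks, with 1 candidate at Pzl, 4 at Myo81F and 0 at the rest. This is 0.00140 candidates per kb at Pzl and 0.00203 at Myo81F, against 0.206 at kirre and 0.218 over the main arms. Optimal peaks are taken from the candidates, so these 5 genes, nearly without candidates, are no measure for the count of kirre. Of the 87 genes of 100 kb or more, 4 lie on Y. Of the 87, 9 had no candidate at all, with WDY, Ppr-Y and kl-5 on Y among them.

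Between the third TSS of kirre and the fourth, replicate 2 had 7 summits among its 2153 strongest and replicate 3 had 3. From the first TSS to the third they had 5 and 3. Candidates of any strength in the former stretch numbered 37 in replicate 2 and 35 in replicate 3. The difference was not tested, as there is 1 library for each value.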
